A study of Mus musculus with 32 samples.

Results

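Fatty acid synthesis and desaturation were followed through 10 genes in the hypothalamus of Gpr101 knockout and wild-type mice on a high-fat or control diet. The genes were Scd1, Scd2, Fads1, Fads2, Acly, Acaca, Fasn, Elovl6, Elovl5 and Srebf1, taken by symbol from a GRCm38 annotation. They are 10 of the 55401 genes in the deposited table and 10 of the 19928 genes that were tested. They were chosen by symbol, which uses no measured value, but with earlier results of these data known, and which of those results led to the choice is not recorded. A count of called genes among the 10 therefore describes these mice and is not independent support. All 10 passed the filter on low values, with at least 2111 reads (Srebf1) in every library.

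RNA sequencing of total hypothalamic RNA was done in 32 male C57BL/6NTac mice. The groups were hemizygous Gpr101 knockouts on high-fat diet (KO_HFD, 9 mice), knockouts on control diet (KO_CD, 8 mice), their wild-type littermates on high-fat diet (WT_HFD, 8 mice) and other wild-type littermates kept on control diet (WT_CD, 7 mice). Gpr101 is an X-linked orphan receptor, the labels describe the deletion no further, and they name no tissue-restricted Cre. High-fat feeding, with 60% of the energy from fat, began at 7 weeks. The hypothalamus was taken at 149 or 150 days of age, and most control-diet mice were a day younger: 1 KO_HFD, 5 KO_CD, 1 WT_HFD and 6 WT_CD mice were of 149 days and the others of 150 days. Each library is a separately labelled mouse.

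Cells build fatty acids from citrate. Acly splits citrate into acetyl-CoA, Acaca turns acetyl-CoA into malonyl-CoA, and Fasn assembles palmitate from it. Elovl6 lengthens saturated and monounsaturated chains, and Elovl5 lengthens polyunsaturated ones. The stearoyl-CoA desaturases Scd1 and Scd2 put the first double bond into saturated chains, while Fads1 and Fads2 desaturate the essential polyunsaturated fatty acids. Srebf1 encodes SREBP1, a membrane-bound transcription factor that activates most of these genes in liver when insulin is high, and that polyunsaturated fatty acids hold back there. In brain, these enzymes serve membranes and myelin, and Scd2 is the main stearoyl-CoA desaturase.

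Scd1 (chromosome 19, 44394455 to 44407879, minus strand) and Scd2 (chromosome 19, 44293674 to 44306864, plus strand) lie 87.6 kb apart, and their coding sequences were identical at 90.7% of 1067 aligned bases. The longest identical run, 147 bases at coding positions 523 to 669 of Scd1 and 532 to 678 of Scd2, is shown first. A read that falls inside it matches both genes equally and can be placed only through its mate. The gap-free stretch of 60 bases with most differences follows for each gene, with its 18 differing bases in capitals, because reads there tell the genes apart. Sequences are from the GENCODE vM21 transcripts of GRCm38.
Scd1 and Scd2: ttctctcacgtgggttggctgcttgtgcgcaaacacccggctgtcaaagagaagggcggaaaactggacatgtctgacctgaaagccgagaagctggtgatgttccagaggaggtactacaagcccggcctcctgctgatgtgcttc
Scd1: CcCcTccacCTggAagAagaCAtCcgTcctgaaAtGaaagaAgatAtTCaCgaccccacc
Scd2: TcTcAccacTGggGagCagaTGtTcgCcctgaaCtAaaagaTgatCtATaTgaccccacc

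Promoter sequence was in RefSeq tables (GRCm38.p6) for 7 of the 10 genes, in 9 windows of the 250 bases before a start. Acaca, Acly, Elovl5, Elovl6, Fads2 and Fasn had 1 window each and Srebf1 had 3. The Acaca window (84195188 to 84195437) lies far inside the gene, which starts at 84129672 in GENCODE, so the bases before that start were not searched. The Srebf1 windows at 60220628 to 60220877 and 60210472 to 60210721 lie inside their gene as well. Use of these inner starts in the hypothalamus was not tested. None of the 9 held the SREBP-type element TCACNCCAC, which 1.05% of all 32851 windows held on either strand. CCAAT boxes (CCAAT, either strand), bound by NF-Y, were in windows of 3 of the 7 genes (Fasn, Elovl5 and Srebf1) and in 33.8% of all windows. The E-box CACGTG was in Elovl5 and in 6.02% of all windows, and the GC box GGGCGG was in 3 of the 7 genes (Acly, Fads2 and Srebf1) and in 32.7% of all windows. No window of the 7 genes held TATAAA (12.4% of all). The windows of Fasn (chr11:120824548-120824797, minus strand) and Elovl5 (chr9:77917115-77917364, plus strand) are shown because Fasn makes the chain and held 3 CCAAT boxes, and Elovl5 held the one E-box, 5′ to 3′ on the strand of the gene, with CCAAT boxes and the E-box in capitals. A pair of CCAAT boxes on opposite strands overlap in Fasn. A match is a match of letters and not a measured binding site.
Fasn: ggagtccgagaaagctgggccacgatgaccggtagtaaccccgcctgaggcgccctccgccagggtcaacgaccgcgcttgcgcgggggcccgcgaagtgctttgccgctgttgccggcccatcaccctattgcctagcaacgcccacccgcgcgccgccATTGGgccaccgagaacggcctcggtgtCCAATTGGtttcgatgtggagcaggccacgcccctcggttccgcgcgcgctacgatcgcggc
Elovl5: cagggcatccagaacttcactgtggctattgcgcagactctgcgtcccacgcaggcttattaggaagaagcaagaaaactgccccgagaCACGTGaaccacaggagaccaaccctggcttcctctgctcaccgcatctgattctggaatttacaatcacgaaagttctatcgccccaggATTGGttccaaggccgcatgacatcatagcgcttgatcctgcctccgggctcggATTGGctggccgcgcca

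Libraries held 25.3 to 34.2 M reads on genes (median 27.7 M), and none stood apart in its correlation with the others (lowest 0.969). Gpr101 itself had 1 read over the 9 KO_HFD libraries and 0 over the 8 KO_CD libraries, against 2471 to 3472 reads per WT_HFD library and 2605 to 3145 per WT_CD library. Neuron, astrocyte and oligodendrocyte markers were present in every group. Adipose tissue, where these genes are abundant, was not visible: Adipoq had 21 reads and Lep 15 over all 32 libraries, and 3 of 10 adipocyte markers passed the filter on low values. The summed level of the 10 adipocyte markers was 11.5 to 14.8 CPM (reads per M reads on genes) in KO_HFD, 11.95 to 14.1 in KO_CD, 11.2 to 14.4 in WT_HFD and 11.9 to 14.5 in WT_CD, most of it Lipe at a mean of 11.2 CPM. In bulk tissue, fewer cells of a type and less RNA per cell cannot be told apart.

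Scd2 was by far the most abundant of the 10 transcripts. Per length, in RPKM (CPM divided by the length of the merged exons in kb), Scd2 averaged 366 ± 9.37 (SD over 32 mice) and was above Scd1 in all 32. It ranked 54th among 19901 tested genes with a length. Scd1 at 67.1 ± 3.11 and Fads2 at 66.9 ± 2.54 RPKM did not differ beyond their spread, since Scd1 was the higher of them in 16 of 32 mice. Fads1 (47.1 ± 1.56), Acly (43.8 ± 1.17), Fasn (32.6 ± 1.98) and Elovl5 (25.4 ± 0.784) followed, each above the next in all 32 mice. Srebf1 (16.01 ± 0.829) was above Elovl6 (13.7 ± 0.944) in 30 of 32 mice, and Acaca was lowest at 7.26 ± 0.362 RPKM. With the length of the longest transcript in place of merged exons Fads2 was above Scd1 (69.98 against 67.9 RPKM), and the other positions were the same. Fads1 was then at 65.5 RPKM, close to Scd1 and Fads2, and Acaca at 13.02 RPKM, close to Elovl6 at 14.9. The gaps between these genes thus depend on the length used.

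**Figure D1:**
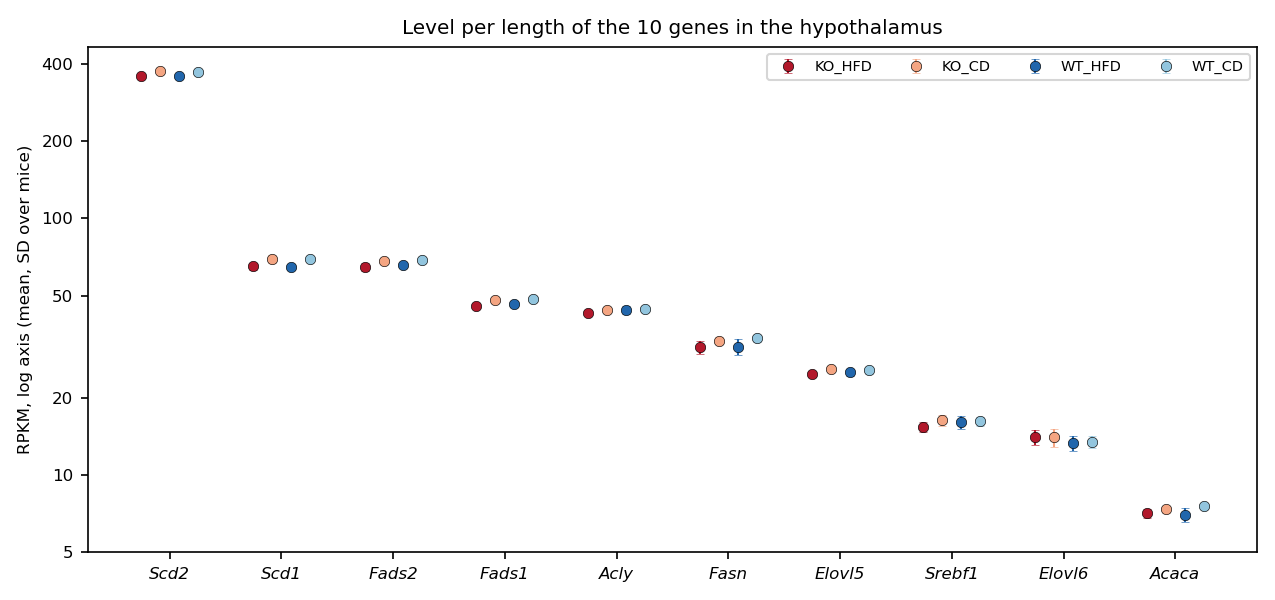
Level per length of the 10 genes in RPKM on a log axis, as mean and SD over mice in KO_HFD, KO_CD, WT_HFD and WT_CD. Scd2, at a mean of 366 RPKM, stands above all others, and Acaca is lowest at 7.26 RPKM, with all 4 groups close together for every gene.

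The 10 genes together took 3677 ± 60.0 CPM in KO_HFD, 3842 ± 44.7 in KO_CD, 3675 ± 90.8 in WT_HFD and 3840 ± 46.0 in WT_CD. Scd2 supplied 53.5 ± 0.504% of the summed normalized counts in KO_HFD, 53.2 ± 0.400% in KO_CD, 53.2 ± 0.580% in WT_HFD and 53.0 ± 0.394% in WT_CD. The mean summed level was thus lower on high-fat than on control diet in each genotype, and the share of Scd2 was nearly the same.

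High-fat feeding was compared with control diet to ask how dietary fat bears on these genes in the hypothalamus. Averaged over genotypes, the 4 desaturase genes Scd1, Scd2, Fads1 and Fads2 and the carboxylase gene Acaca were lower on high-fat diet, with differences of -4.28% (Scd2) to -7.39% (Scd1). These 5 of 10 were called lower at an adjusted p below 0.05 (limma, Benjamini-Hochberg over all 19928 genes), against 0.151% of all genes tested. At an unadjusted p below 0.05, 8 of 10 were lower, against 5.2% of all genes. All 10 log2 fold changes were below 0, as were 50.6% of all genes tested, with a median of -0.067 and a range of -0.11 to -0.016, and the median of all genes tested was -0.0008. In each genotype all 10 genes were below 0, as were 50.6% of all genes in knockouts and 50.1% in wild type. The knockout and wild-type diet comparisons use different mice, but the 10 genes were chosen with earlier results of these data known. The genes of a mouse also share its library, so these shared signs describe the mice and are not independent support.

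Scd1 had the lowest adjusted p of the 10. Its normalized count (reads divided by a library size factor) was 8437 at lowest, 8941 at the median and 9282 at highest in KO_HFD, against 9205, 9563 and 10285 in KO_CD. In wild type it was 8398, 8793 and 9075 in WT_HFD, against 9136, 9603 and 9719 in WT_CD. The wild-type diet groups did not overlap, as for 7 of 19928 genes that were lower (0.0351%), and 7 of 9 KO_HFD mice were below every KO_CD mouse. Averaged over genotypes, Scd1 fell by 7.39% (log2 fold change -0.11, SE 0.016, adjusted p = 5.34e-05).

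In knockouts Scd1 was called lower (log2 fold change -0.11, SE 0.022, adjusted p = 0.0347), the only one of the 10 among the 4 genes called lower there (0.0201% of genes tested). At an unadjusted p below 0.05, 9 of the 10 genes were lower in knockouts, against 3.47% of all genes. In wild type Scd1 had the same size of difference (-0.11, SE 0.023) and missed the threshold (adjusted p = 0.0565). There limma called 0 of the 10 genes lower, as it did 0 of 19928 genes (0%), limma-voom called 1 (Scd1), and 6 of 10 were lower at an unadjusted p below 0.05, against 3.54% of all genes. The knockout call was lost (adjusted p up to 0.151) without any of KO_HFD replicates 1, 5, 7 and 8 or KO_CD replicates 1, 3, 4, 5 and 6, and with the other 23 libraries left out in turn it held. It was also lost with CPM scaling (log2 fold change -0.10, adjusted p = 0.0577), without trend and robust moderation (-0.11, 0.108), with only the 2 groups compared (-0.11, 0.0901), with blood (-0.11, 0.0718) or astrocyte markers (-0.10, 0.057) as a covariate and in the 150-day mice alone (-0.10). In wild type Scd1 passed (adjusted p down to 0.026) without any of KO_HFD replicates 1, 6 and 7, KO_CD replicate 6, WT_HFD replicates 2, 5 and 7 or WT_CD replicate 4.

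Scd2, the brain form, moved by a smaller percentage with a smaller spread. Its normalized count was 53644 at lowest, 55316 at the median and 55929 at highest in KO_HFD, against 56034, 57610 and 58836 in KO_CD. The 9 KO_HFD mice were all below the 8 KO_CD mice, which 3 of 19928 genes showed in this direction (0.0151%). In wild type it was 52921, 54658 and 56771 in WT_HFD, against 55757, 56802 and 58182 in WT_CD, and 7 of 8 WT_HFD mice were below every WT_CD mouse. Scd2 fell by 4.28% averaged over genotypes (log2 fold change -0.063, SE 0.012, adjusted p = 0.00249). Alone, neither genotype passed (adjusted p = 0.164 in knockouts and 0.345 in wild type, limma).

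Fads1 and Fads2 are neighbours on chromosome 19, at 10182888 to 10196877 (plus strand) and 10062765 to 10101746 (minus strand), 81.1 kb apart. Fads1, the delta-5 desaturase, had normalized counts of 5924 at lowest, 6148 at the median and 6360 at highest in KO_HFD, against 6294, 6472 and 6674 in KO_CD. In wild type they were 6051, 6230.3 and 6438 in WT_HFD, against 6356, 6467 and 6855 in WT_CD. These groups overlapped, with 7 of 9 KO_HFD mice below all KO_CD mice and 6 of 8 WT_HFD mice below all WT_CD mice. Averaged over genotypes Fads1 fell by 4.81% (log2 fold change -0.071, SE 0.015, adjusted p = 0.0123).

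Fads2, the delta-6 desaturase that acts before Fads1, had normalized counts of 5606 at lowest, 5990.3 at the median and 6299 at highest in KO_HFD, against 6219.9, 6307 and 6566 in KO_CD. In wild type they were 5892, 6056 and 6434 in WT_HFD, against 6175, 6429 and 6549 in WT_CD. The groups overlapped: 8 of 9 KO_HFD mice were below all KO_CD mice, and 6 of 8 WT_HFD mice were below all WT_CD mice. Averaged over genotypes Fads2 fell by 5.46% (log2 fold change -0.081, SE 0.017, adjusted p = 0.0101).

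**Figure D2:**
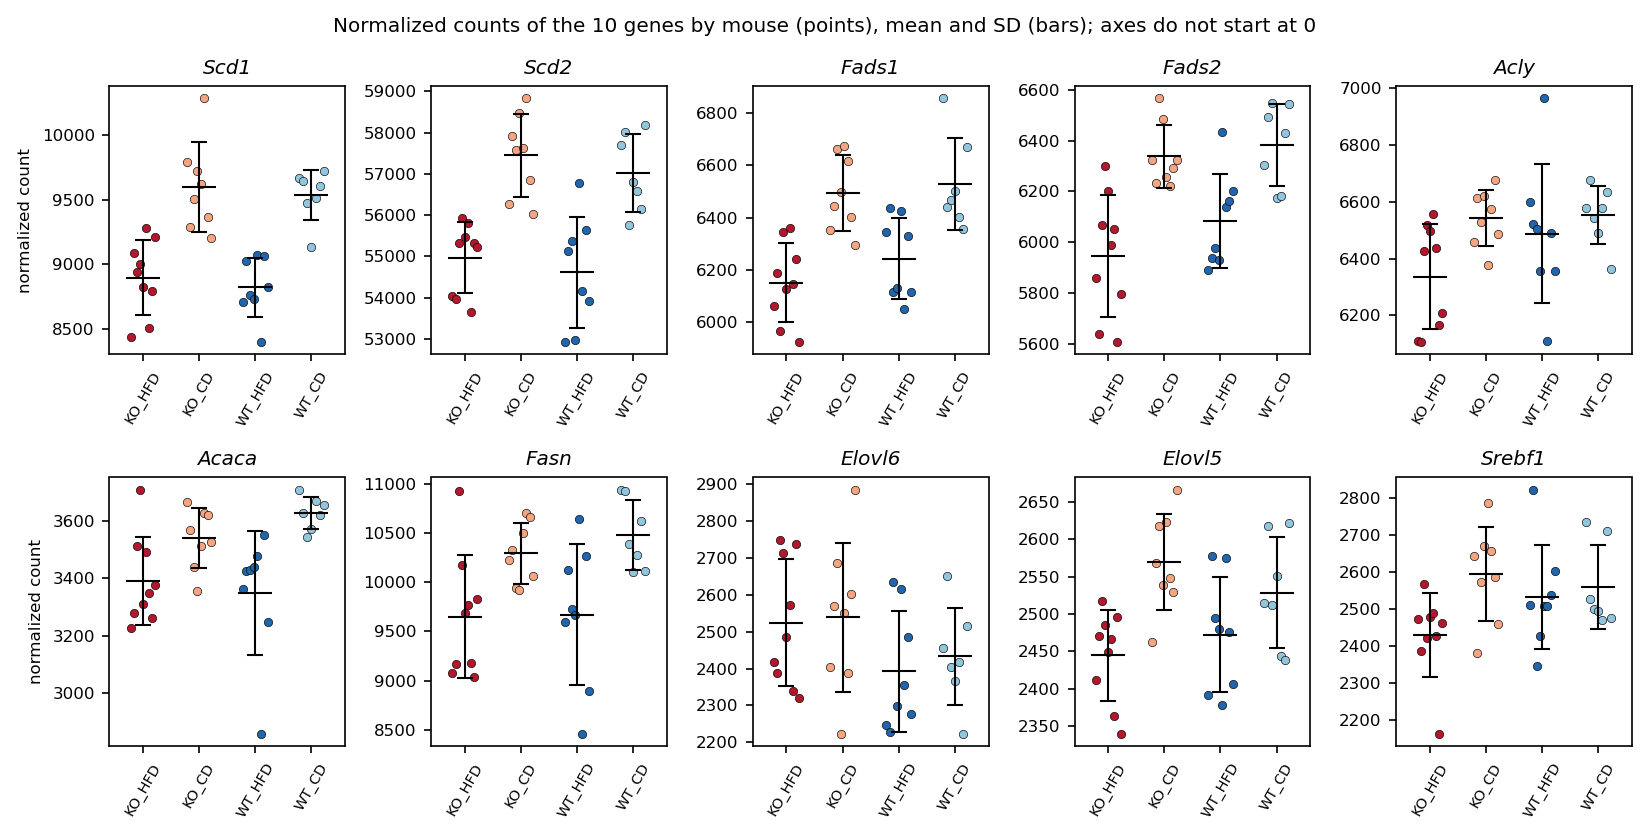
Normalized count of each of the 10 genes in every mouse (points) with mean and SD (bars), in KO_HFD, KO_CD, WT_HFD and WT_CD; axes do not start at 0. For Scd2 all 9 KO_HFD mice lie below all 8 KO_CD mice, for Scd1 all 8 WT_HFD mice lie below all 7 WT_CD mice, and the groups of Elovl6 overlap broadly.

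Of the genes that make the saturated chain, Acaca was called lower and Fasn and Acly were not. Acaca (chromosome 11, 84129672 to 84401651, plus strand), the enzyme of the committed step, had normalized counts of 3227 at lowest, 3348 at the median and 3706 at highest in KO_HFD, against 3354, 3545 and 3665 in KO_CD. In wild type they were 2859.8, 3428 and 3549 in WT_HFD, against 3544, 3627 and 3708 in WT_CD. The groups overlapped, with 5 of 9 KO_HFD mice below all KO_CD mice and 7 of 8 WT_HFD mice below all WT_CD mice.

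Averaged over genotypes Acaca fell by 6.05% (log2 fold change -0.090, SE 0.022, adjusted p = 0.0474). Acaca missed the threshold with no filter (limma, adjusted p = 0.0969), with CPM scaling (0.066), without trend and robust moderation (0.112) and with blocks of 8 library numbers (0.0593). In each of these settings 4 of the 10 genes were called, against 0.104%, 0.356%, 0.256% and 0.311% of all genes tested, in that order. Acaca also missed with age (0.145), meningeal (0.0819) or blood markers (0.156) as a covariate and with the replicate number as a block (0.113). In the 150-day mice alone the log2 fold change of Acaca was -0.10. With each of the 32 libraries left out in turn it held in 8 fits, those without KO_HFD replicates 3 or 4, KO_CD replicate 4, WT_HFD replicates 2, 3, 5 or 7 or WT_CD replicate 3, and missed the threshold in the other 24, with adjusted p between 0.0153 and 0.0857 over all 32. Acaca also shares long stretches with the processed pseudogene Gm5182 (6707 reads in all libraries), so part of its reads may be divided between them.

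Fasn (chromosome 11, 120805846 to 120824547, minus strand) had as large a difference as Scd1 with a wider spread. Its normalized count was 9037 at lowest, 9687 at the median and 10930.1 at highest in KO_HFD, against 9917, 10279 and 10703 in KO_CD. Among wild-type mice it was 8461, 9695 and 10644 in WT_HFD, against 10106, 10387 and 10939.7 in WT_CD. In both genotypes the groups overlapped, with 7 of 9 KO_HFD mice below all KO_CD mice and 5 of 8 WT_HFD mice below all WT_CD mice. The averaged log2 fold change was -0.11 (SE 0.027, adjusted p = 0.0754), and it passed without KO_HFD replicate 3 or WT_HFD replicate 5 (lowest adjusted p 0.0103).

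Acly (chromosome 11, 100476353 to 100528000, minus strand), which supplies the acetyl-CoA, had the smallest difference of the 3. Its normalized count was 6106 at lowest, 6428 at the median and 6555 at highest in KO_HFD, against 6377, 6553 and 6677 in KO_CD. The wild-type values were 6111, 6496 and 6963 in WT_HFD, against 6365, 6577 and 6675 in WT_CD. The groups overlapped, and the averaged log2 fold change was -0.031 (SE 0.015, adjusted p = 0.457).

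Neither elongase gene passed. Elovl5 (chromosome 9, 77917364 to 77984519, plus strand) had normalized counts of 2339 at lowest, 2466 at the median and 2518 at highest in KO_HFD, against 2462, 2558 and 2667 in KO_CD. In wild type they were 2378, 2478 and 2578 in WT_HFD, against 2438, 2515 and 2622 in WT_CD. Every group pair overlapped, and the averaged log2 fold change was -0.052 (SE 0.017, adjusted p = 0.191).

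Elovl6 (chromosome 3, 129532355 to 129638495, plus strand) had the diet difference nearest to 0 of the 10 genes averaged over genotypes and in knockouts, while in wild type Acly and Srebf1 were nearer to 0. Its normalized count was 2320.2 at lowest, 2486 at the median and 2749 at highest in KO_HFD, against 2223, 2560.2 and 2886 in KO_CD. Wild-type mice had 2228, 2327 and 2634 in WT_HFD, against 2223, 2417 and 2651 in WT_CD. The groups overlapped nearly completely, and the averaged log2 fold change was -0.016 (SE 0.033, 95% interval -0.084 to 0.052, adjusted p = 0.906). The interval reaches past the differences of Scd2, Fads1 and Fads2, so a change of their size could not be told from none.

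Srebf1 (chromosome 11, 60199089 to 60222581, minus strand), the regulator of the pathway, did not pass. Its normalized count was 2162.5 at lowest, 2462 at the median and 2568 at highest in KO_HFD, against 2382, 2615 and 2786 in KO_CD. Wild-type mice had 2345, 2509 and 2823 in WT_HFD, against 2471, 2501 and 2737 in WT_CD. All 9 KO_HFD mice were below the KO_CD median, whereas 2 of 8 WT_HFD mice were below the WT_CD median. The averaged log2 fold change was -0.055 (SE 0.024, adjusted p = 0.371). Srebf1 overlaps Rai1 on the opposite strand (mean 112 CPM), and since the strand setting of the authors' counting is not given in the sources used here, part of its reads could belong to Rai1.

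**Figure D3:**
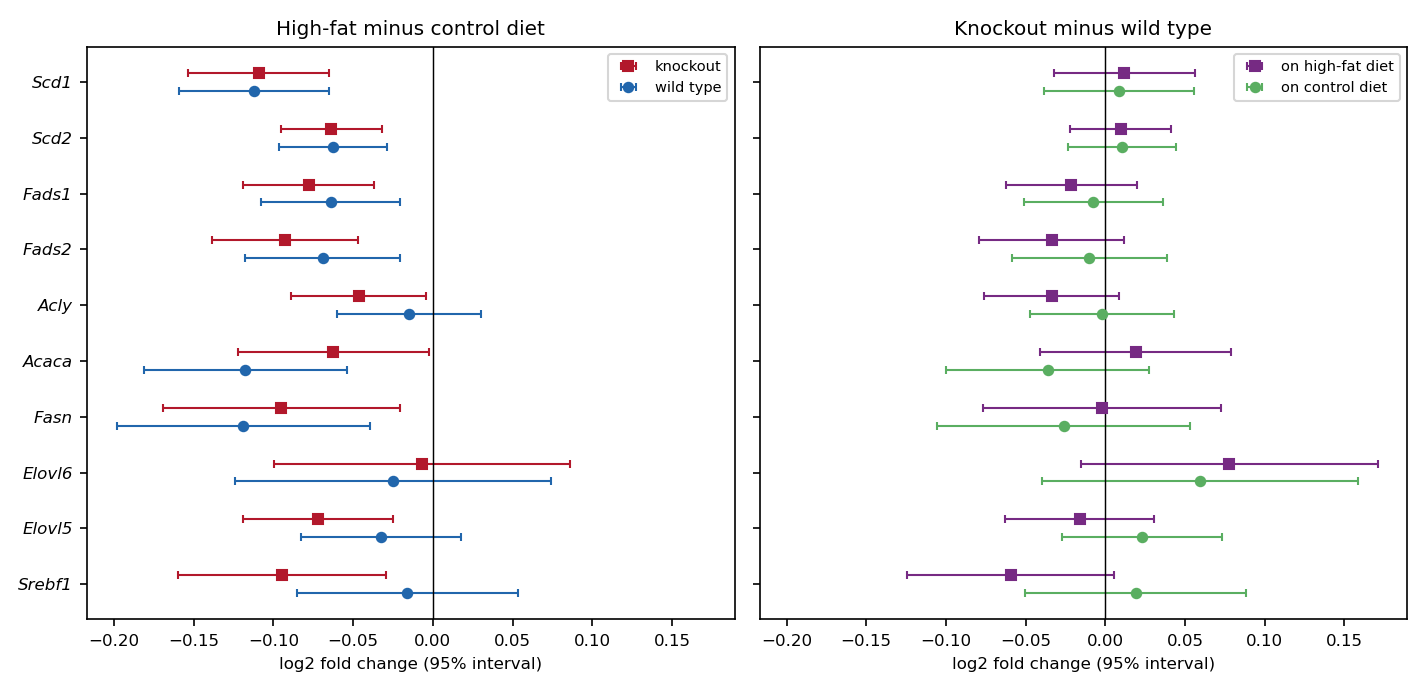
Log2 fold change with its 95% interval for each of the 10 genes, for high-fat minus control diet in knockouts and in wild type (left) and for knockout minus wild type on each diet (right). All 20 diet estimates lie below 0, between -0.12 and -0.0068, and the genotype estimates lie on both sides of 0.

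The age of the mice could be examined only in part, since 2 high-fat mice were of 149 days. Each was set against the mean of its group's 150-day mice for the 10 genes, and it was below that mean in 16 of 20 cases. It was above in 4, which were Fads1, Acaca and Acly in WT_HFD and Srebf1 in KO_HFD. These 20 cases come from 2 mice, and the genes of a mouse share its library, so they are not independent comparisons. The share over all genes tested was not computed. For Scd1 the KO_HFD mouse of 149 days had 8437 and the 8 KO_HFD mice of 150 days averaged 8956 ± 250.3, and the WT_HFD mouse of 149 days had 8707 against 8840 ± 243 in the 7 of 150 days. Within KO_CD, Scd1 averaged 9618 ± 583 in the 3 mice of 150 days, against 9587 ± 198 in the 5 of 149 days. For Scd2 the values in KO_CD were 57242 ± 1441 at 150 days, against 57580 ± 819 at 149 days.

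With age as a covariate, 2 of the 10 genes remained called lower by diet averaged over genotypes, Scd1 (-0.13, adjusted p = 0.000719) and Scd2 (-0.0745, adjusted p = 0.0221), among 12 genes in all. In the 150-day mice alone, where WT_CD is a single mouse assumed to vary like the other groups, limma called 0 of the 10 and 0 genes in all, with a log2 fold change of -0.12 for Scd1 (adjusted p = 0.932). The median log2 fold change of the 10 genes was -0.073 with age as a covariate and -0.079 in the 150-day mice, against -0.067 as reported.

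Markers of tissue around the hypothalamus were compared between the diets, averaged over genotypes. The 14 meningeal markers all had a log2 fold change above 0, with a median of 0.63, and none was called. Their summed level was 77.8 to 476 CPM in KO_HFD, 65.7 to 377 in KO_CD, 65.4 to 469.9 in WT_HFD and 76.2 to 262 in WT_CD. Of 6 blood markers tested, the 4 globin genes were called higher, and the summed level of the 7 listed was 589 to 1319 CPM in KO_HFD, 383 to 777 in KO_CD, 575 to 1475 in WT_HFD and 392 to 622 in WT_CD.

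The mean of these markers was entered as a covariate to see what remained. With the meningeal markers, 3 of the 10 genes were called lower by diet averaged over genotypes (Scd1, Scd2 and Fads1), among 42 genes called in all (0.211%). With the blood markers, a covariate chosen after seeing the data, 1 was called among 18 in all (0.0903%), Scd1 (-0.12, adjusted p = 0.00453), and the median of the 10 genes was -0.082. Oligodendrocytes use these enzymes for myelin. Of their 15 markers, 4 were above 0 by diet in knockouts (median log2 fold change -0.0237) and 12 in wild type (median 0.0302), with 0 called in either. With them as a covariate, 5 of the 10 were called among 76 genes in all (0.381%).

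**Figure D4:**
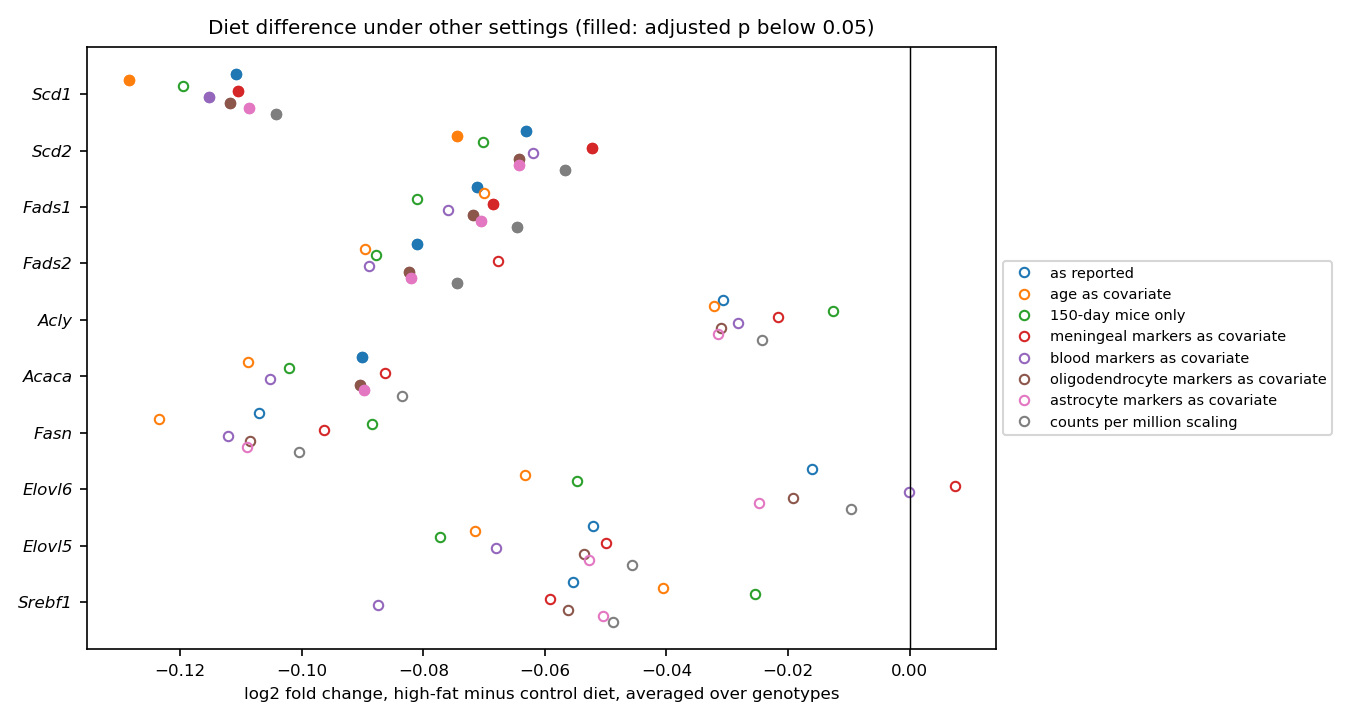
Log2 fold change of each of the 10 genes for high-fat minus control diet, averaged over genotypes, as reported and under 7 other settings; filled points have an adjusted p below 0.05. Scd1 stays between -0.13 and -0.10 and is open only in the 150-day mice, and Elovl6 lies on either side of 0.

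Knockouts were compared with wild type to ask whether these genes depend on Gpr101. limma called 0 of the 10 genes on high-fat diet, on control diet or averaged over diets, and limma-voom also called 0. Gpr101 itself was the 1 gene called in each of these comparisons (0.00502% of genes tested). At an unadjusted p below 0.05, 1 of the 10 passed averaged over diets (Elovl6), 0 passed on high-fat diet and 0 on control diet, against 5.72%, 5.15% and 4.12% of all genes in these 3 comparisons. The median of the 10 averaged log2 fold changes was -0.011, beside -0.0018 for all genes tested. The 95% intervals of the 10 averaged differences lay between -0.0685 and 0.137 on the log2 scale.

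Cell type markers were set beside these values, averaged over diets, and none was called in the following lists. Of 16 neuron markers 14 were above 0 (median log2 fold change 0.028), and of 14 astrocyte markers 13 were below 0 (median -0.0305). All 15 oligodendrocyte markers were above 0 (median 0.047), and their summed level was 5156 to 6456 CPM in KO_HFD, 5323 to 6489.8 in KO_CD, 5153 to 6364 in WT_HFD and 5164 to 5869 in WT_CD. All 10 tanycyte markers were below 0 (median -0.0998), with a summed level of 175 to 239 CPM in KO_HFD, 159 to 228 in KO_CD, 175 to 279 in WT_HFD and 190.2 to 245 in WT_CD. All 9 ependymal markers tested were below 0 as well (median -0.0957), with a summed level of 78.0 to 103 CPM in KO_HFD, 80.5 to 95.2 in KO_CD, 86.6 to 106 in WT_HFD and 80.3 to 117 in WT_CD. With oligodendrocyte or astrocyte markers as a covariate, 0 of the 10 genes were called by genotype. The astrocyte covariate was chosen after seeing the data, and the part of the neuron, tanycyte and ependymal lists was not tested.

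Elovl6 had the largest genotype difference of the 10. On high-fat diet it had normalized counts of 2320.2 at lowest, 2486 at the median and 2749 at highest in KO_HFD, against 2228, 2327 and 2634 in WT_HFD. The groups overlapped on both diets, with a log2 fold change of 0.078 (SE 0.046) on high-fat diet and 0.059 (SE 0.049) on control diet. Averaged over diets the value was 0.069 (SE 0.033, unadjusted p = 0.0486, adjusted p = 0.867, limma).

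The other genes differed less between genotypes. On high-fat diet the log2 fold change was 0.012 for Scd1, 0.0097 for Scd2, -0.021 for Fads1 and -0.034 for Fads2. On control diet these desaturase genes had 0.0088, 0.011, -0.0075 and -0.010 in the same order, so that none moved by as much as its diet difference. On high-fat diet Acaca had 0.019, Fasn -0.0021, Acly -0.034, Elovl5 -0.016 and Srebf1 -0.059. On control diet they had -0.036, -0.026, -0.0021, 0.023 and 0.019 in that order, and several differ in sign between the diets. Every adjusted p on these diets was 0.948 or higher.

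The interaction of genotype and diet asks whether the diet difference was other in knockouts than in wild type. limma called 0 of the 10 genes and 0 of 19928 in all (0%), 0 of the 10 had an unadjusted p below 0.05 against 3.39% of all genes, and limma-voom also called 0. Srebf1 had the largest value, with a diet difference of -0.095 (SE 0.032) in knockouts and -0.016 (SE 0.034) in wild type and an interaction of -0.079 (SE 0.047, 95% interval -0.174 to 0.016, adjusted p = 0.999). Acaca followed with 0.055 (SE 0.043), with a diet difference of -0.0625 in knockouts and -0.12 in wild type. For Scd1 the interaction was 0.0031 (95% interval -0.061 to 0.068) and for Scd2 -0.0009 (-0.047 to 0.045). Fads1 had -0.014 (interval -0.074 to 0.046). Elovl5 had -0.039, Acly -0.032, Fads2 -0.024, Fasn 0.024 and Elovl6 0.018.

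Other genes of the pathway were taken from lists drawn up with earlier results known. Of 77 listed genes outside the 10, 73 were tested, and 1 was called, lower on high-fat diet averaged over genotypes: Fabp7, the fatty acid carrier of radial glia and astrocytes. Over all genes tested, 0.151% were called lower. Of the 73, 48 were below 0, beside 50.6% of all genes tested, and the median was -0.017. At an unadjusted p below 0.05, 12 of the 73 were lower, against 5.2% of all genes. At that p 3 were higher, as were 1171 of all 19928 genes. Fabp7 had normalized counts of 972 at lowest, 1089.7 at the median and 1196 at highest in KO_HFD, against 1207, 1288 and 1393 in KO_CD. In wild type they were 927, 1118 and 1348 in WT_HFD, against 1087, 1238 and 1473 in WT_CD. The knockout groups did not overlap, as for 3 of 19928 genes that were lower there (0.0151%), and the wild-type groups did. Fabp7 fell by 15.3% averaged over genotypes (log2 fold change -0.24, SE 0.049, adjusted p = 0.0202, limma), and astrocyte markers had a median of -0.017, with 9 of 14 below 0. The call held without any single library (adjusted p up to 0.0416) and with astrocyte markers as a covariate (-0.25, adjusted p = 0.00948). It was lost with age (adjusted p = 0.181), meningeal (0.0596) or blood markers (0.133) as a covariate, with the replicate number as a block (0.0617) and in the 150-day mice alone (0.976), at log2 fold changes of -0.30 to -0.23.

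Genes beside the synthesis steps did not pass. In the supply of acetyl-CoA and NADPH 0 of 8 were called, and G6pdx of the pentose phosphate path (-0.067, adjusted p = 0.239) and the citrate carrier gene Slc25a1 (-0.063, adjusted p = 0.296) had the smallest p for diet. Around malonyl-CoA 0 of 8 were called, with Thrsp, a lipogenic cofactor (-0.13, adjusted p = 0.251), and Acacb, the mitochondrial carboxylase (-0.068, adjusted p = 0.608), first. Among the other elongation genes 0 of 10 were called, and Elovl1, which makes very long chains, was on the other side of 0 (0.13, adjusted p = 0.253), unlike Hsd17b12 (-0.047, adjusted p = 0.35). Among the other desaturation genes 0 of 8 were called, with Cyb5b (-0.029, adjusted p = 0.431) and Cyb5r3 (0.054, adjusted p = 0.445), which carry electrons, first.

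Regulators gave the same picture. Of 15 genes of transcriptional control 0 were called, and Srebf2, the SREBP that drives cholesterol genes, came closest (-0.066, SE 0.018, adjusted p = 0.0895). Insig2, which holds SREBPs in the endoplasmic reticulum, had 0.043 (adjusted p = 0.444). Cholesterol synthesis, the other SREBP programme, had 20 of 22 genes below 0 with a median of -0.043 and 0 called, beside 8 of 22 lower at an unadjusted p below 0.05. Over all genes tested, 50.6% were below 0 and 5.2% were lower at that p. Dhcr7 (-0.081, adjusted p = 0.095) and Mvd (-0.14, adjusted p = 0.124) were first there.

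For genotype averaged over diets, limma called 0 of the 73 pathway genes and 0 of the 22 cholesterol genes. At an unadjusted p below 0.05 there were 3 and 2 of them, against 5.72% of all genes tested. The smallest p within the lists belonged to Idh1 (-0.037) and Mdh1 (0.026), Mcat (0.084) and Thrsp (-0.0585), Elovl2 (0.091) and Elovl4 (0.0295), Cyb5r3 (-0.056) and Degs2 (-0.060), Insig1 (-0.047) and Mbtps1 (-0.024), and Mvk (-0.069) and Dhcr7 (-0.044). Adjusted p of these 12 was 0.848 or higher, and Fabp7 had -0.039 (adjusted p = 0.959).

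**Figure D5:**
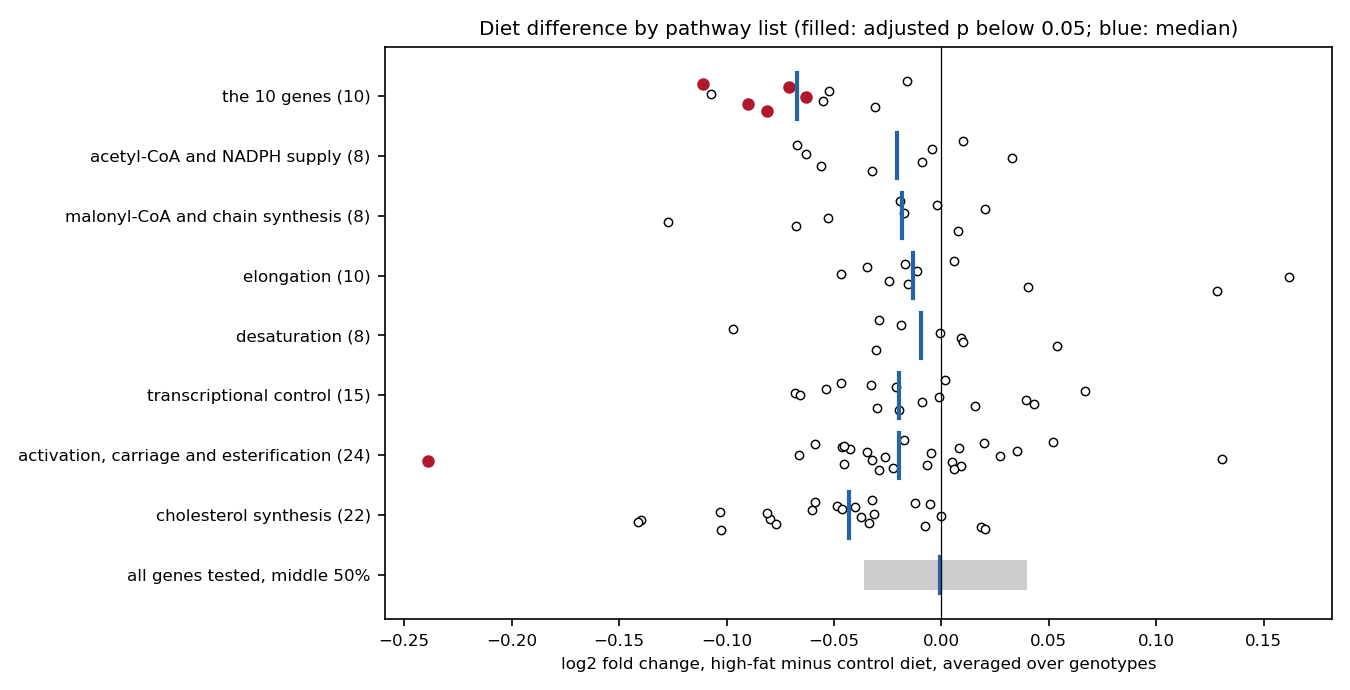
Log2 fold change for high-fat minus control diet, averaged over genotypes, of the 10 genes and of the genes tested in 7 related lists (number in brackets), with the median as a blue bar, called genes filled, and the middle 50% of all genes tested in grey. The 10 genes have a median of -0.067, the cholesterol synthesis list -0.043, and Fabp7 is the one called gene outside the 10.

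Paralogs were set against each other within each mouse, which removes the scaling of the library. The ratio of Scd1 to Scd2 normalized counts was 0.162 in KO_HFD, against 0.167 in KO_CD (log2 difference -0.046, two-sided exact permutation p = 0.0339, n = 9 and 8). In wild type it was 0.162 in WT_HFD, against 0.167 in WT_CD (-0.0496, exact permutation p = 0.00777, n = 8 and 7). Over the 12 ratios and comparisons tested none passed the correction, with an adjusted p of 0.203 in knockouts and 0.0932 in wild type. Fads1 over Fads2 was 1.04 in KO_HFD, against 1.02 in KO_CD, and 1.03 in WT_HFD, against 1.02 in WT_CD, and none of its 4 comparisons passed (adjusted p = 0.929 each). Elovl5 over Elovl6 was 0.970 in KO_HFD, against 1.04 in WT_HFD (log2 difference -0.094, exact permutation p = 0.0589, adjusted p = 0.235).

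Within groups the genes differed in how tightly they were held. After the group means were removed, the SD of Scd2 on the log2 scale was 0.027, below that of 98.4% of the 500 genes nearest in level. Elovl5 (0.040) and Fads1 (0.035) were also tight for their level, whereas Elovl6 (0.099) and Fasn (0.079) had more spread than 95.8% and 88.4% of their neighbours.

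Between mice of a group, the genes of chain synthesis varied together. Over 32 mice, with group means removed, Pearson's r was 0.79 for Acaca and Fasn, 0.68 for Fasn and Acly and 0.60 for Acaca and Acly, and 0.56 for Scd1 and Scd2. It was 0.12 for Fads1 and Fads2, and lowest for Elovl6 and Srebf1 at -0.43. These are descriptions without a test, and all genes of a mouse share its library and dissection.

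The genes most like each of the 10 by this measure were taken as the highest 3 among all genes tested, and 1 of the 10 was among them. Acaca was most like Prrc2b (0.83), Tnr (0.82) and Fasn (0.79), and Fasn was most like Apc2 (0.87), Abca2 (0.87) and Kif1a (0.86). Elovl6 was most like Uhmk1 (0.89), Hspa4l (0.86) and Kif5c (0.83), and Acly was most like Dpysl4 (0.72), Caskin1 (0.70) and Fbxo41 (0.69). Scd2 was most like Syt11 and Dip2b (0.72 each). For Scd1 they were Gm12758, Cyp20a1 and Ebf3 (0.63 to 0.69). For Fads2 they were Wscd1, Ache and Snx1 (0.73 to 0.74), for Fads1 Gm44686, Wdr4 and Kank4 (0.64 to 0.66), for Elovl5 Ubqln4, Capza1 and Rpe (0.67 to 0.73), and for Srebf1 Sirt2, Foxp4 and Exosc4 (0.72 to 0.74). For comparison, 95% of all genes had r below 0.30 (with Fads1) to 0.47 (with Elovl6).

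The same centred values were set against 7 cell type marker lists, 70 relations in all. By Pearson's r none passed the correction, the closest being Scd2 with the meningeal markers (r = -0.60, permutation p = 0.00114, adjusted p = 0.0518) and Elovl6 with the neuron markers (r = 0.56, permutation p = 0.00148, adjusted p = 0.0518). By Spearman's rho 4 relations passed: Elovl6 with neurons (rho = 0.62, adjusted permutation p = 0.0273), and Elovl6 with tanycytes (rho = -0.56), Scd2 with meninges (-0.60) and Scd2 with neurons (0.59), each with an adjusted permutation p of 0.0329. Without the 2 mice farthest from the median of the markers, Pearson's r was 0.52, -0.54, -0.65 and 0.57 for these 4 relations in that order. With all 32 mice it was 0.56, -0.52, -0.60 and 0.55. Spearman's rho was not recomputed, so whether the 4 relations still pass without those mice was not tested. Mice with higher Scd2 or Elovl6 thus had higher neuron markers within their group.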

How the data were processed

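Total RNA of the hypothalamus was sequenced as stranded paired-end reads, per the labels' protocols. Reads were trimmed, aligned and normalized by the authors; tools named in the submitters' processing notes include STAR 2.7.6a for GRCm38, DESeq2 1.28.1, Trim Galore 0.6.2 and cutadapt 2.10. How reads were counted, with which annotation and which strand setting, is not given in the sources used here. Each deposited value is the log2 of reads over the size factor of its library, and 0 reads are listed as the log2 of 0.1. Undoing this gave whole reads for 100.0% of values (tolerance 0.001 reads). CPM and RPKM were computed from these recovered reads. Symbols, positions and lengths are from GENCODE vM21.

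Values of log2(normalized count + 1) were tested with limma 3.58.1 in R 4.3.3 (trend, robust, all 4 groups in 1 fit, two-sided) for genes with a normalized count of at least 10 in at least 7 libraries; p-values were adjusted by Benjamini-Hochberg over 19928 genes with a threshold of 0.05. Paralog ratios had exact permutation tests, and marker relations 100000 shuffles within groups. The fit was checked on simulated data with folds larger than the diet differences of the 10 genes, so the check does not cover changes of their size. Alternatives changed the filter (none, or 50), pseudocount (0.5 or 5), scaling, variance model, covariates, age set and each library. The 10 genes, the lists and the naming rule (all 10 genes, called pathway genes or the 2 of smallest p per list for diet and genotype, and the 3 most alike genes, of which 1 is not reported here) were chosen with earlier results of these data known. Counting precision is high at these depths, and intervals cover spread between mice.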

Additional observations from a re-analysis of the deposited data

Results flagged for a closer look

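In 3 of the 52 sets of values examined (the 10 genes and 3 paralog ratios in each of 4 groups), 1 mouse stood far from the rest of its group. Chance would be expected to do so in about 1 in 20 sets. Scd1 was lowest in WT_CD replicate 4, at a normalized count of 9135.9, with the other 6 mice between 9476.9 and 9718.7; this mouse still lay above all 8 WT_HFD mice. Acaca was lowest in WT_HFD replicate 6, at 2859.8, with the others between 3249.6 and 3549. Srebf1 was lowest in KO_HFD replicate 8, at 2162.5, with the others between 2385.9 and 2568.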

How the results depend on the processing

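Averaged over genotypes, Scd1 was called lower on high-fat diet in all 32 fits that left out 1 library and under every other setting except the mice of 150 days. Blood and astrocyte markers as covariates were chosen after seeing the data. For diet averaged over genotypes, 5 of the 10 genes and 67 in all (0.336%) were called as reported. These became 2 and 12 (0.0602%) with age as covariate, 3 and 42 (0.211%) with meningeal and 1 and 18 (0.0903%) with blood markers. In mice of 150 days the median log2 fold change of the 10 genes was -0.079. With no filter, CPM scaling, no trend and blocks of 8 library numbers, 4 of the 10 were called. All genes called there were 43 (0.104%), 71 (0.356%), 51 (0.256%) and 62 (0.311%), in that order. With astrocyte markers 104 genes were called in all (0.522%). Without single libraries all genes called were 41 to 87, with 4 to 6 of the 10. In knockouts, 1 of the 10 became 2 with no filter and 0 with CPM scaling, without trend and robust moderation, in mice of 150 days, with blood or astrocyte markers and with only the 2 groups compared (0 to 1 without single libraries); all 7 genes became 4, 3, 2, 3 and 15 under scaling, no trend, 150 days, blood and astrocyte markers, and 12 with meningeal markers (3 to 10). In wild type, 0 of the 10 became 1 with no filter, limma-voom, limma-voom with quality weights, and oligodendrocyte or astrocyte markers (0 to 1); all 5 genes became 8 with quality weights, 3 without trend, 1 with age, 0 at 150 days, 0 with blood and 9 with astrocyte markers, and 2 with only the 2 groups (1 to 7). Genes called by genotype became 2 on control diet with no filter, and 2 on high-fat diet and averaged without trend.

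Replicate numbers were not taken to pair the mice. They follow the order of the library numbers in the labels, which tie them to nothing else shared. The deviations of same-numbered libraries had a median r of 0.005 (-0.195 to 0.321, 45 pairs), beside -0.001 in 338 other pairs. Within the same set of 8 library numbers it was 0.006 (95 pairs). That 11 of 32 libraries were most like one of their own number is a hint from the data and not the design. The number that chance would give was not computed. With the replicate number as a block, 3 of the 10 genes and 45 in all were called for diet averaged over genotypes and 3 genes for diet in wild type. This block gave 0.008 for Elovl6 by diet in knockouts, -0.0066 for the interaction of Scd1 and 0.0019 for Acly by genotype on control diet.

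Changes of sign were seen only for log2 fold changes that missed the threshold. Elovl6 by diet in knockouts became 0.0012 with scaling, 0.0037, 0.0087 and 0.0074 with oligodendrocyte, meningeal and blood markers. With meningeal markers, Elovl6 became 0.0061 by diet in wild type and 0.0074 averaged, and Acly 0.0005 by genotype on control diet. With astrocyte markers the interaction of Elovl6 became -0.0287. The interaction of Scd2 became 0.0022 with scaling, 0.001 with quality weights, 0.0031 with age and 0.0086 with oligodendrocyte markers. With oligodendrocyte markers, genotype on control diet became -0.0033 for Scd1 and -0.0015 for Scd2, and averaged genotype became -0.0065 for Elovl5. With age, Srebf1 by diet in wild type became 0.0013 and Elovl5 by averaged genotype -0.0003. In mice of 150 days, diet in wild type became 0.0326 for Srebf1 and 0.0231 for Acly. Genotype on control diet there became -0.0167 for Scd1, -0.0238 for Scd2, 0.0504 for Fasn, -0.0228 for Elovl5 and 0.0478 for Acly, and on high-fat diet 0.0075 for Fasn. Averaged genotype there became -0.0088 for Scd2, 0.0019 for Acaca, 0.0289 for Fasn, -0.0217 for Elovl5 and 0.0121 for Acly. The interaction there became 0.0301 for Scd2, 0.0359 for Fads1, 0.0218 for Fads2, -0.0429 for Fasn and 0.0022 for Elovl5. In mice of 149 days, genotype on control diet became 0.0051 for Fads1 and 0.0041 for Fads2. With blocks of 8 library numbers, Fasn by genotype on high-fat diet became 0.0006. Without single libraries, genotype on control diet ran between -0.0055 and 0.0173 for Scd1, -0.0138 and 0.0044 for Fads1 and -0.0090 and 0.0032 for Acly, and on high-fat diet between -0.0132 and 0.0313 for Acaca and -0.0292 and 0.0181 for Fasn. Elovl6 by diet in knockouts ran between -0.0336 and 0.0201, Srebf1 by diet in wild type between -0.0386 and 0.0003, and Elovl5 by averaged genotype between -0.0008 and 0.0079. The interaction ran between -0.0070 and 0.0174 for Scd1, -0.0073 and 0.0071 for Scd2, -0.0031 and 0.0442 for Fasn and -0.0084 and 0.0454 for Elovl6. For these changes the cause was not tested.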
